A study of Mus musculus with 6 samples.

Results

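Aminoacyl-tRNA synthetases are the enzymes that join each amino acid to its tRNA. The set described here holds 38 genes: 20 genes for cytosolic synthetases, 16 genes for mitochondrial synthetases, and the partners Xpot and Eef1e1. They were taken by gene symbol from the 15118 genes of the deposited expression table, and each was found once. All 38 reached the minimum level for testing, which was 1 RPKM (a read count scaled by exon length and library size) in at least 3 hearts.

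RNA of whole E12.5 hearts from 6 Black-Swiss mouse embryos was sequenced. All 6 embryos carried 1 Cre allele at the NKX2-5 locus (label NKX2-5 Cre/WT), expressed in the heart muscle lineage, where it recombines floxed alleles, and not in every cell of the heart. The 3 control hearts (numbered 2, 5 and 9) carried the Hif1a genotype WT/flox and the 3 mutant hearts (numbered 5, 8 and 10) Hif1a Null/flox, so that control hearts too lose the floxed allele where Cre acts, and cells without Cre activity carry the null allele in mutant hearts. HIF1 is a transcription factor of low oxygen, and Hif1a encodes its subunit that oxygen destabilises. The question here is whether synthetase transcripts differ by genotype. The labels name separate hearts and give no litters or batches, so the p-values refer to the spread among these 6 samples, which may be partly technical.

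The synthetases of the cytosol and of mitochondria are all encoded by nuclear genes, for most amino acids by separate ones, and the mitochondrial enzymes are imported. Several cytosolic synthetases are held together with small scaffold proteins in a multi-synthetase complex, and the others act free of it. When amino acids run short or other stress signals slow translation, the transcription factor ATF4 raises genes of amino acid supply, and cytosolic synthetase genes are known among its targets. ATF4 binds, with C/EBP family partners, to a C/EBP-ATF response element.

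The stretches around the transcript start are shown for the 5 members whose start region holds a match to that element, and for Sars, one of the members that rose most, whose region holds none. The motif searched was TGATGNAA on both strands. Sequences are from RefSeq (GRCm38.p6, the assembly also called mm10), run 5′ to 3′ on the strand of the gene from 120 bases before the start to 30 bases after it, and have the match in capitals.
Aars: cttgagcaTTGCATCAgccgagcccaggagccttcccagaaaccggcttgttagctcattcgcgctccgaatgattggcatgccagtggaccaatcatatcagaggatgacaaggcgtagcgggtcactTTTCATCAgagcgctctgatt
Gars: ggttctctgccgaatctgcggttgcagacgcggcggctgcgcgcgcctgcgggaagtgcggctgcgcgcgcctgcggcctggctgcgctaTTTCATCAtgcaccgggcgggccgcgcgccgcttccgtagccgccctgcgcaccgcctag
Iars: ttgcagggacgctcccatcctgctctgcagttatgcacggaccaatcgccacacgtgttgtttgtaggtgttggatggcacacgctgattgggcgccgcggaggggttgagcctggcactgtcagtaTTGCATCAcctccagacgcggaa
Tars: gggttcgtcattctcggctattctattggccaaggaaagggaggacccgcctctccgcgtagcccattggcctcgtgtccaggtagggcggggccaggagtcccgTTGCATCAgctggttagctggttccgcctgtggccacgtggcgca
Yars: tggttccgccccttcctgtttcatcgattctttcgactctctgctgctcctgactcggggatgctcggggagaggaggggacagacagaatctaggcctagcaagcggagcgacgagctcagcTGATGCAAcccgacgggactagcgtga
Sars: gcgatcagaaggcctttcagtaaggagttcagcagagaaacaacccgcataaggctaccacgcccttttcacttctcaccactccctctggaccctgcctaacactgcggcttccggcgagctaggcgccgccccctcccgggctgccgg

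These windows lie at chr8:111033722-111033871 on the plus strand for Aars, chr6:55037881-55038030 on the plus strand for Gars, chr13:49682010-49682159 on the plus strand for Iars, chr15:11399629-11399778 on the minus strand for Tars, chr4:129189783-129189932 on the plus strand for Yars and chr3:108445230-108445379 on the minus strand for Sars. A start region of 300 bases (250 before and 50 after the start) was found for 29 of the 38 members, the one for Mars under its newer symbol. Cars, Hars, Lars, Nars, Rars, Vars, Wars, Hars2 and Pars2 were not matched. The element was present in 5 of the 13 cytosolic synthetases with such a region and in 0 of the 14 mitochondrial synthetases. It was present in 3.97% of all 32851 start regions of the same length, and in 2.74% of those of the 10027 genes of the deposited table that were matched. Its first base lay 112 bases before and again at base 10 after the start in Aars, 30 bases before it in Gars, 15 bases before it in Tars, at base 8 in Iars and at base 4 in Yars. A match is a description of these letters and not evidence of binding.

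**Figure D1:**
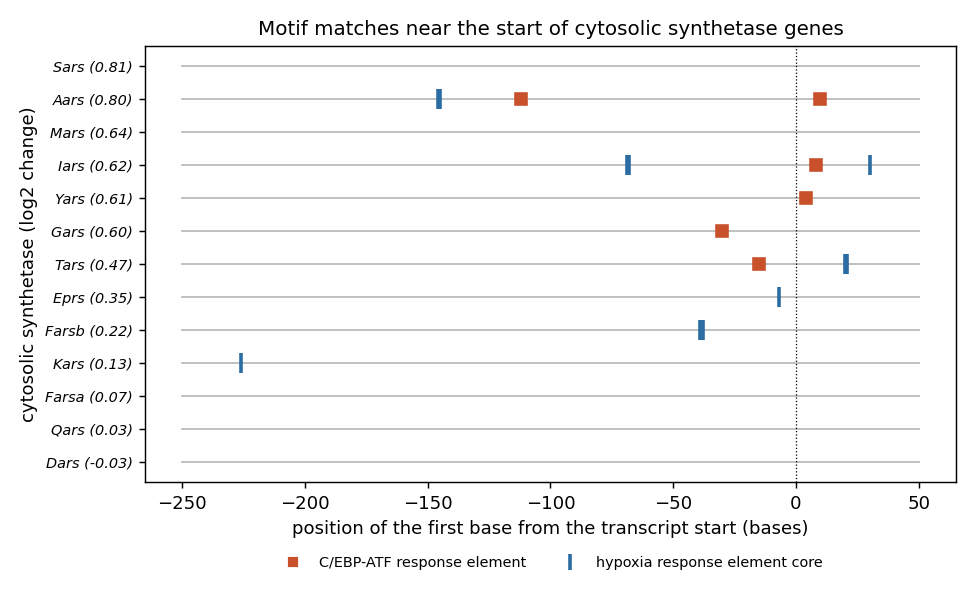
Each line is the start region of a cytosolic synthetase gene, from 250 bases before to 50 bases after the transcript start, ordered by log2 change (in brackets, mutant minus control). Squares mark the C/EBP-ATF response element, which lies between 112 bases before the start and base 10 after it in 5 genes. Bars mark the hypoxia response element core, searched as ACGTG alone, in 6 genes.

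The cytosolic synthetases were higher in mutant hearts in part of the set, and the mitochondrial synthetases were not called. Of the 20 cytosolic genes 8 rose (Aars, Sars, Nars, Cars, Yars, Gars, Mars and Iars) and 0 fell at an adjusted p under 0.05 in limma, against 0.42% of all 13080 tested genes called higher and 0.398% called lower (0.818% in both directions). Of the 16 mitochondrial genes 0 passed in limma, and 1 (Vars2) had an unadjusted p under 0.05, against 13 of the cytosolic genes, all higher. Of all tested genes 11.2% had an unadjusted p under 0.05 in limma, 4.92% higher and 6.26% lower. The median log2 change was 0.46 over the cytosolic and 0.03 over the mitochondrial genes, against −0.03 over all tested genes. Every mutant heart lay above every control heart in 13 of 20 cytosolic and in 1 of 16 mitochondrial genes, and in 7.6% of all tested genes. Every mutant heart lay below every control heart in 0 of the 38 members and in 9.43% of all tested genes. Log2 changes are mutant minus control on the log2(RPKM + 1) scale, which understates changes of genes with low values. The members were chosen with earlier results of these data known, so these shares are not set against an independently chosen list.

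Summed over the 20 cytosolic genes, the level was 527, 537 and 542 RPKM in the control hearts (2, 5, 9) and 701, 705 and 743 RPKM in the mutant hearts (5, 8, 10). Summed over 15 mitochondrial genes, leaving out Lars2 for its spread, it was 97.2, 104 and 95.2 RPKM in the controls and 103, 96.8 and 109 RPKM in the mutants. The cytosolic sums of the genotypes did not overlap and the mitochondrial sums did. These are whole hearts, so fewer cells of a type and less RNA per cell cannot be told apart in any of these values.

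**Figure D2:**
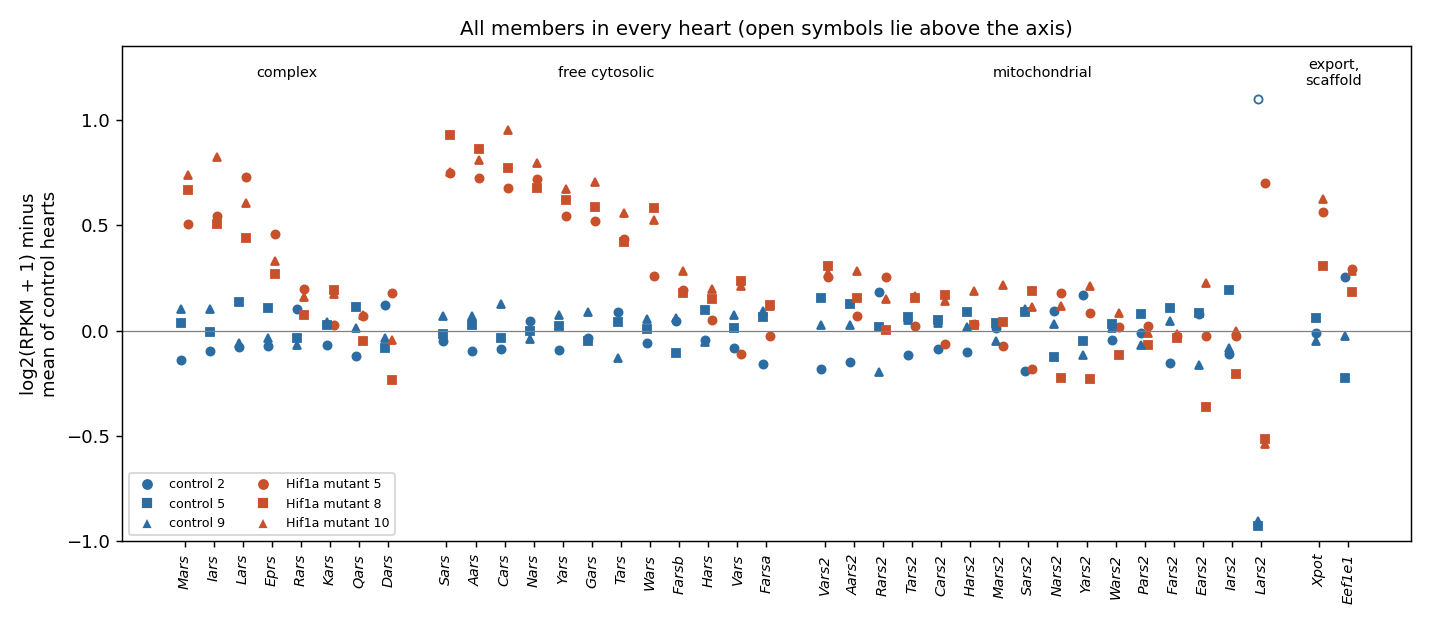
Each point is a heart, as log2(RPKM + 1) minus the mean of the 3 control hearts, for all 38 genes in 4 groups ordered by log2 change. Mutant hearts (red) lie above the control hearts (blue) in 4 of 8 complex and 9 of 12 free cytosolic genes and in 1 of 16 mitochondrial genes, and Lars2 spreads widest (control 2 lies beyond the axis).

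Among the free cytosolic enzymes, those for serine, alanine, asparagine and cysteine had the largest changes. Sars, the seryl-tRNA synthetase, whose product also serves as the substrate for making selenocysteine, measured 34.1, 35.0 and 37.2 RPKM in control hearts 2, 5 and 9, while mutant hearts 5, 8 and 10 measured 60.0, 68.3 and 60.3 RPKM. All mutant hearts stood well above all control hearts. Its log2 change was 0.81 ± 0.09 SE (limma adjusted p = 0.0045).

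Aars, the alanyl-tRNA synthetase, measured 10.5, 11.5 and 11.9 RPKM in the controls and 19.3, 21.3 and 20.5 RPKM in the mutants. Its hearts were tightly grouped within each genotype, with 11.3 ± 0.719 and 20.4 ± 1.02 RPKM (SD, n = 3). The log2 change was 0.80 ± 0.09 SE (limma adjusted p = 0.0045).

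Nars, which charges the tRNA for asparagine, measured 31.8, 30.7 and 29.95 RPKM in the controls and 51.4, 49.8 and 54.3 RPKM in the mutants, with a log2 change of 0.73 ± 0.08 SE (limma adjusted p = 0.0047). Its SE was the smallest of the 20 cytosolic genes. Sars, Aars and Nars kept their call in all 16 alternative settings tried, with an adjusted p of up to 0.046, 0.045 and 0.046.

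Cars, the cysteinyl-tRNA synthetase, had the lowest control level of the cytosolic set, with 6.03, 6.29 and 7.16 RPKM. It measured 10.97, 11.8 and 13.5 RPKM in the mutants, and its ratio of means, 1.86, was the highest of the cytosolic set. The log2 change was 0.80 ± 0.11 SE (limma adjusted p = 0.012). The call was lost when control 2, control 5 or mutant 10 was left out (limma adjusted p = 0.053, 0.087 and 0.074).

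Gars, the glycyl-tRNA synthetase, which serves the cytosol and mitochondria from 1 gene, had the highest level of the cytosolic set. It measured 72.3, 71.6 and 78.9 RPKM in the controls and 107, 112 and 122 RPKM in the mutants, with no overlap. Its log2 change was 0.60 ± 0.09 SE (limma adjusted p = 0.021), which passed without mutant 5 or 8 but not when control 2, 5 or 9 or mutant 10 was left out (limma adjusted p = 0.080, 0.16, 0.059 and 0.14).

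Yars, the tyrosyl-tRNA synthetase, measured 7.26, 7.96 and 8.27 RPKM in the controls and 11.9, 12.53 and 13.04 RPKM in the mutants. The spread within each genotype was small beside the gap between them. Its log2 change was 0.61 ± 0.09 SE (limma adjusted p = 0.021), and the call was lost when control 2, 5 or 9 or mutant 10 was left out (limma adjusted p = 0.074, 0.12, 0.067 and 0.14).

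The other 6 free cytosolic genes were not called. Tars, the threonyl-tRNA synthetase, measured 23.4, 22.7 and 20.0 RPKM in the controls and 30.1, 29.8 and 32.8 RPKM in the mutants (log2 change 0.47 ± 0.10 SE, limma adjusted p = 0.073). Wars, the tryptophanyl-tRNA synthetase, measured 12.2, 12.8 and 13.2 RPKM and 15.4, 19.5 and 18.7 RPKM (log2 change 0.46 ± 0.11 SE, limma adjusted p = 0.12). In both genes the genotypes did not overlap, and Wars passed without mutant 5 alone (limma adjusted p = 0.038), the mutant heart in which it was lowest.

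Farsa and Farsb encode the α and β subunits of the phenylalanyl-tRNA synthetase, which work together in a single enzyme. Farsa measured 7.68, 9.13 and 9.32 RPKM in the controls and 8.52, 9.54 and 9.49 RPKM in the mutants, and the genotypes overlapped. Farsb measured 37.6, 33.7 and 37.9 RPKM and 41.7, 41.3 and 44.5 RPKM, without overlap (log2 change 0.22 ± 0.09 SE, limma adjusted p = 0.41). The valyl-tRNA synthetase Vars and the histidyl-tRNA synthetase Hars had log2 changes of 0.11 ± 0.11 SE and 0.13 ± 0.09 SE, with overlapping genotypes.

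**Figure D3:**
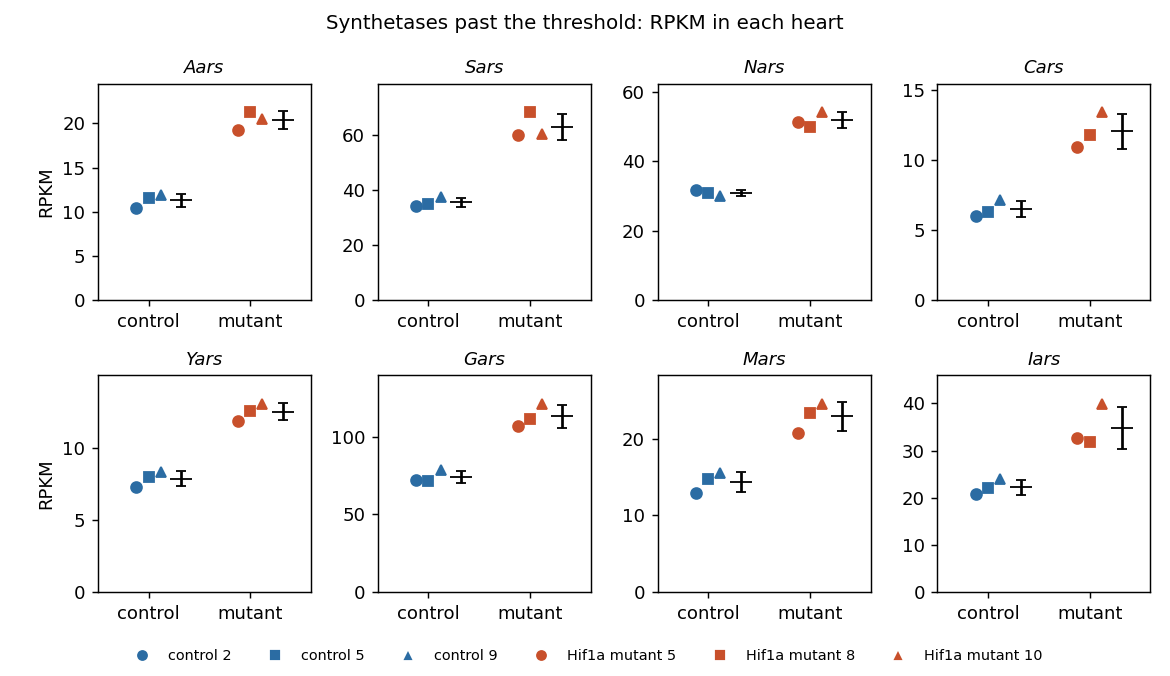
RPKM in each heart for the 8 synthetase genes past the threshold, with a linear axis from 0, and beside each group its mean and SD (n = 3). The 3 mutant hearts lie above the 3 control hearts in each panel, with the highest levels in Gars (107 to 122 RPKM in mutants) and the lowest in Cars (6.03 to 7.16 RPKM in controls).

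Within the multi-synthetase complex the members did not share a change, and neither did the free enzymes. Log2 changes ran from −0.03 (Dars) to 0.64 (Mars) in the complex and from 0.07 (Farsa) to 0.81 (Sars) among the free enzymes. Of the 8 synthetase genes of the complex 2 rose (Mars and Iars), against 6 of the 12 free enzymes and 0.42% of all tested genes. In either group 0 fell. The median log2 change was 0.25 over the complex and 0.54 over the free enzymes, a difference that is described and not tested. The complex divided into 4 genes without overlap between genotypes (Mars, Iars, Lars and Eprs) and 4 with overlap (Rars, Kars, Qars and Dars). Every mutant heart lay above every control heart in 9 of the 12 free enzymes and in 7.6% of all tested genes.

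Mars, the methionyl-tRNA synthetase, which also charges the initiator tRNA, measured 12.9, 14.8 and 15.5 RPKM in the controls and 20.8, 23.4 and 24.6 RPKM in the mutants (log2 change 0.64 ± 0.11 SE, limma adjusted p = 0.032). The call was lost when control 2, 5 or 9 or mutant 8 or 10 was left out (limma adjusted p = 0.097, 0.16, 0.065, 0.077 and 0.18). Mars (mm10 chromosome 10, 127296221 to 127311786, minus strand) shares 68 of its 3423 exon bases with Ddit3 on the opposite strand, which rose from 4.51 to 18.4 RPKM (limma adjusted p = 9.66e-05). Whether the libraries keep strand was not given in the sources used here. It was not tested what part of the value of Mars are reads of Ddit3. Exons of Yars, Cars2, Ears2, Fars2 and Nars2 also share 30 to 422 bases with a gene on the opposite strand.

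Iars, the isoleucyl-tRNA synthetase, measured 20.7, 22.0 and 23.9 RPKM in the controls and 32.7, 31.8 and 39.9 RPKM in the mutants. Mutant 10 stood highest, and its log2 change of 0.62 ± 0.11 SE had a limma adjusted p of 0.044, the closest to the threshold among the 8 called genes. The call was lost when control 2, 5 or 9 or mutant 10 was left out (limma adjusted p = 0.14, 0.23, 0.088 and 0.18). In the 4 hearts left without control 2 and mutant 8, a choice made after seeing the data, the limma adjusted p of Iars, Mars, Gars and Yars was 0.062, 0.075, 0.056 and 0.053. Iars also missed the threshold with limma without trend (adjusted p = 0.0501), a pseudocount of 0.1 (limma adjusted p = 0.0501) and rescaling without haemoglobin genes (limma adjusted p = 0.061).

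Lars, the leucyl-tRNA synthetase, known also as a leucine sensor of the mTORC1 pathway, lay just outside the threshold. It measured 19.6, 23.0 and 19.9 RPKM in the controls and 35.1, 28.5 and 32.1 RPKM in the mutants, without overlap (log2 change 0.59 ± 0.11 SE, limma adjusted p = 0.0503). It passed in 6 of the 16 alternative settings (limma adjusted p between 0.024 and 0.046), among them the fit without mutant 8 (0.038).

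Eprs, a bifunctional enzyme that charges the tRNAs for glutamate and proline, measured 25.6, 29.2 and 26.3 RPKM in the controls and 37.5, 32.7 and 34.2 RPKM in the mutants. The genotypes did not overlap, and the log2 change of 0.35 ± 0.10 SE did not pass (limma adjusted p = 0.19). The enzymes for arginine (Rars), lysine (Kars), glutamine (Qars) and aspartate (Dars) had log2 changes of 0.14 ± 0.09, 0.13 ± 0.09, 0.03 ± 0.10 and −0.03 ± 0.12 (SE). Dars, the cytosolic gene with the lowest change, measured 41.7, 36.0 and 37.2 RPKM in the controls and 43.4, 32.4 and 37.0 RPKM in the mutants.

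Synthetases also fall into 2 structural classes by the fold of their catalytic domain, and both classes held genes that rose. Of 19 genes of class I 4 rose (Cars, Yars, Mars and Iars), with a median log2 change of 0.14. The bifunctional Eprs was counted in class I alone. Of 17 genes of class II 4 rose (Sars, Aars, Nars and Gars), with a median of 0.13. Both classes mix cytosolic and mitochondrial genes, and the difference between them was not tested.

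Of the 2 partners, Xpot, the exportin that carries tRNAs out of the nucleus, measured 9.83, 10.4 and 9.55 RPKM in the controls and 15.1, 12.48 and 15.8 RPKM in the mutants. Mutant 8 was the lowest of the mutant hearts and still above every control (log2 change 0.50 ± 0.11 SE, limma adjusted p = 0.097, and 0.038 without mutant 8). Eef1e1, a scaffold protein of the complex also known as AIMP3, measured 34.1, 24.2 and 27.8 RPKM in the controls and 35.0, 32.4 and 34.8 RPKM in the mutants, and overlapped (log2 change 0.25 ± 0.12 SE, limma adjusted p = 0.49). Control 2 was the highest control heart for Eef1e1. Its log2 change was 0.38 without control 2 (limma adjusted p = 0.26), where the genotypes no longer overlapped, and 0.14 without control 5 (limma adjusted p = 0.83).

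The mitochondrial synthetases other than Lars2 had low levels, from 1.87 RPKM (Mars2) to 18.2 RPKM (Rars2) in control means, and log2 changes between −0.08 (Iars2) and 0.28 (Vars2), with SEs of 0.09 to 0.15. Vars2, which charges the mitochondrial valine tRNA, was the single gene without overlap, with 2.50, 3.43 and 3.06 RPKM in the controls and 3.74, 3.92 and 3.81 RPKM in the mutants (limma adjusted p = 0.39). Its cytosolic counterpart Vars was not called either, with 14.3, 15.3 and 16.1 RPKM and 14.01, 18.1 and 17.8 RPKM. These p-values above the threshold do not show that the mitochondrial genes did not differ.

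The enzymes were then set against each other by amino acid, as the difference between the mitochondrial and the cytosolic gene within each heart on the log2(RPKM + 1) scale. This gave 17 pairs, in which Eprs is paired with both Ears2 and Pars2, and Fars2 with both Farsa and Farsb. Gars, Kars, Qars and Dars have no separate mitochondrial gene in the set and were not paired. With 3 hearts against 3 the exact two-sided permutation test cannot give a p below 0.1, so no pair can pass 0.05, and adjusted over the 17 pairs the smallest value was 0.15. In 11 of 17 pairs the difference was lower in every mutant heart than in every control heart (exact permutation p = 0.1 each, the smallest possible). In 0 pairs was it higher in every mutant heart. The cytosolic genes of the 11 pairs are all among those without overlap between genotypes, so this count is not separate from theirs. The share over other pairs of genes was not computed.

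For serine the difference fell by 0.77, the largest shift among these 11 pairs, with Sars2 at 5.39, 6.75 and 6.84 RPKM in the controls and 5.43, 7.30 and 6.89 RPKM in the mutants. For alanine it fell by 0.63, with Aars2 at 4.25, 5.35 and 4.94 RPKM and 5.10, 5.49 and 6.08 RPKM. For asparagine it fell by 0.71, with Nars2 at 3.60, 2.95 and 3.39 RPKM and 3.87, 2.68 and 3.66 RPKM. In each of these pairs the mitochondrial gene overlapped between genotypes while the cytosolic one did not.

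For isoleucine the difference fell by 0.70, with Iars2 at 12.54, 15.7 and 12.8 RPKM in the controls and 13.4, 11.7 and 13.6 RPKM in the mutants. Iars2 shares 2034 of its 8885 exon bases with Rab3gap2 on the opposite strand, and the part of those reads was not tested. For methionine it fell by 0.58, with Mars2 at 1.89, 1.94 and 1.77 RPKM and 1.72, 1.94 and 2.32 RPKM. Mars2 had the lowest level of the whole set.

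For threonine the difference fell by 0.36, with Tars2 at 4.97, 5.77 and 5.69 RPKM in the controls and 5.55, 6.203 and 6.24 RPKM in the mutants. For tryptophan it fell by 0.46, with Wars2 at 2.76, 2.96 and 2.91 RPKM and 2.93, 2.57 and 3.10 RPKM. In these pairs the cytosolic gene itself was not called.

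For proline the difference between Pars2 and Eprs fell by 0.37, with Pars2 at 2.12, 2.33 and 2.00 RPKM in the controls and 2.19, 2.00 and 2.12 RPKM in the mutants. For phenylalanine the difference between Fars2 and Farsb fell by 0.24, with Fars2 at 8.85, 10.8 and 10.3 RPKM and 9.79, 9.70 and 9.84 RPKM. Without control 5 that shift was −0.14. Fars2 against Farsa, the other subunit, shifted by −0.10, with overlap.

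In 2 pairs the order of the enzymes differed between genotypes. Cars2 measured 6.62, 7.38 and 7.31 RPKM in the controls, above Cars in each of them, and 6.75, 8.10 and 7.92 RPKM in the mutants, below Cars in each of them (difference lower by 0.72; mean 0.11 in control and −0.60 in mutant hearts). Yars2 measured 11.1, 9.37 and 8.92 RPKM in the controls and 10.4, 8.18 and 11.4 RPKM in the mutants, again above Yars in every control heart and below it in every mutant heart (mean 0.28 and −0.30). In 13 of the 17 pairs the mitochondrial gene was the lower in every heart. These orders compare RPKM of different genes and so depend on the exon length counted for each. By GENCODE that length was 4469 bases in Cars, 1841 in Cars2, 5809 in Yars and 3149 in Yars2. In control 9 Cars2 and Cars were close (7.31 and 7.16 RPKM).

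The pairs with overlap were those for glutamate (Ears2, shift −0.41), phenylalanine (Farsa), histidine (−0.05), leucine (−0.71), arginine (−0.01) and valine (0.17). For histidine, Hars and Hars2 lie head to head on opposite strands and share 195 exon bases, so their values may not be separate. For arginine, Rars and Rars2 had almost the same log2 change, 0.14 each. For valine the shift was upward, the one positive value among the 17, with an exact permutation p of 0.3. It was 0.07 without mutant 5, and 0.24 without control 5, where every mutant heart lay above every remaining control heart.

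**Figure D4:**
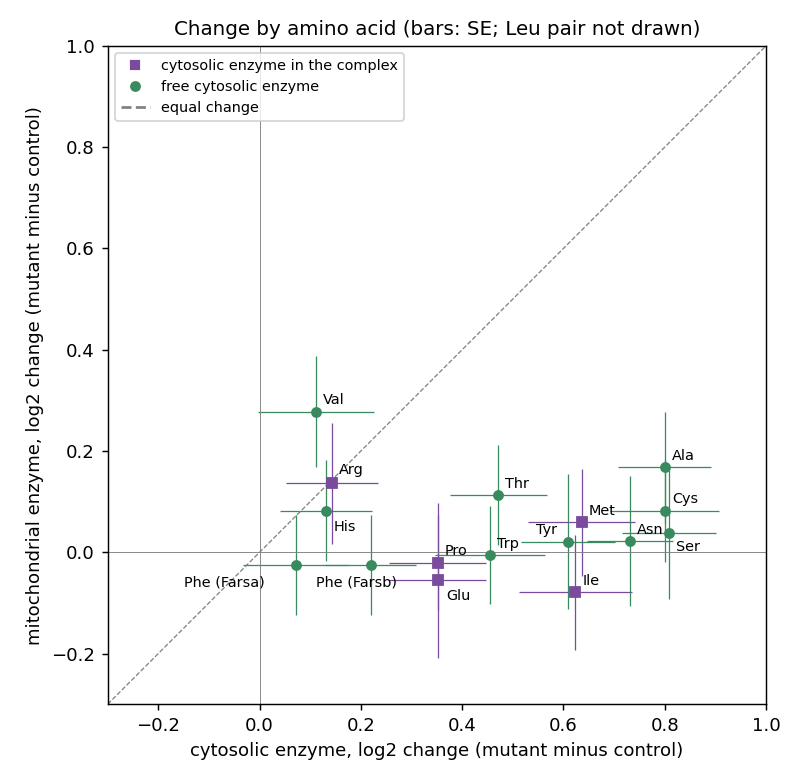
Each point is an amino acid, with the log2 change of the cytosolic enzyme on the x axis and of the mitochondrial enzyme on the y axis (bars are SE, squares are complex members, the dashed line is equal change). Most points lie right of the line and near 0 on the y axis, valine (0.11 and 0.28) lies above the line, and the leucine pair is left out for the spread of Lars2.

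Lars2, the mitochondrial leucyl-tRNA synthetase, went against the other mitochondrial genes in its level and spread. It measured 519, 75.8 and 77.3 RPKM in control hearts 2, 5 and 9, and 236, 101 and 99.8 RPKM in mutant hearts 5, 8 and 10, so that 1 heart of each genotype stood far above the rest. Its log2 change was −0.12 ± 0.67 SE (limma adjusted p = 0.96), and 0.80 without control 2 (adjusted p = 0.51). The rows of the table most like it over the 6 hearts, looked up after its values were seen, were Gm24270, Gm22641 and Gm23935 (Pearson r = 1.00, 0.99 and 0.99 over 6 hearts), which the table classes as miRNA.

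Gm24270 stood at 2866 RPKM for control 2 and at 1045 RPKM for mutant 5, against 244 to 414 RPKM in the other 4 hearts. Gm23935 stood at 7153 RPKM for control 2 and at 3328 RPKM for mutant 5, against 962 to 1613 RPKM in the others. The part of such rows in the value of Lars2 was not tested. Lars, the cytosolic leucine enzyme, did not follow this order of hearts.

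**Figure D5:**
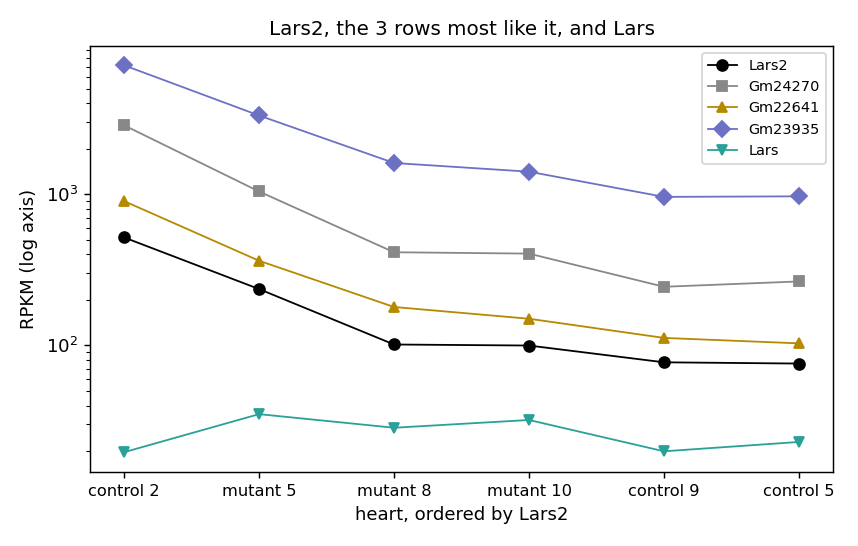
RPKM on a log axis in the 6 hearts, ordered by Lars2, for Lars2, the 3 rows most like it (Gm24270, Gm22641, Gm23935) and the cytosolic gene Lars. Lars2 runs parallel to the 3 rows from control 2 (519 RPKM) to control 5 (75.8 RPKM), and Lars stays between 19.6 and 35.1 RPKM.

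Related genes of translation were mostly not called, as were most genes of the table. Of all 13080 tested genes 0.818% were called in both directions, so counts of 0 in lists of this size are near that share. Of 18 tested tRNA charging partners outside the set 0 passed in limma, with a median log2 change of 0.01. At an unadjusted limma p under 0.05 were 2 of them (Aimp1 higher and Sephs1 lower), near the share of 11.2% over all tested genes. Aimp1 and Aimp2, the other scaffold proteins of the complex, measured 49.5 and 58.9 RPKM (log2 change 0.25 ± 0.10 SE) and 16.6 and 18.4 RPKM (0.14 ± 0.12 SE) in control and mutant hearts.

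Of 36 tested genes of tRNA maturation and export 0 passed in limma and 0 had an unadjusted p under 0.05, with a median of 0.06. Of 35 tested translation initiation genes 0 passed and 5 had an unadjusted p under 0.05, all higher (4.92% of all tested genes did so), with Eif4ebp1, a repressor of cap-dependent initiation, at 85.7 and 122 RPKM (log2 change 0.50 ± 0.10 SE, limma adjusted p = 0.063). Of 12 elongation genes 1 fell. It was Eef1a2, the muscle and neural isoform, with mean levels of 34.3 RPKM in controls against 21.1 RPKM in mutants. Its log2 change was −0.68 ± 0.11 SE (limma adjusted p = 0.024). The list's median was 0.16, and 10 of its 12 log2 changes were positive (5567 of all 13080 tested genes). Every mutant heart lay above every control heart in 8 of 35 initiation and 2 of 12 elongation genes. The same held in 3 of 36 maturation and export genes and 1 of 18 charging partners, against 7.6% of all tested genes. Every mutant heart lay below every control heart in 0, 1, 0 and 2 genes of these lists, against 9.43%.

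The 10 genes outside the set whose profile was most like the mean profile of the cytosolic genes, by Pearson correlation over the 6 hearts, were Gm13054, Mrps18b, AC163629.1, Phb, Nppa, Slc7a5, Rhbdd1, Mrps35, Ddx39 and Slc6a9 (r between 0.988 and 0.996). Of these Gm13054, Nppa, Slc7a5 and Slc6a9 also rose. Gm13054, an antisense RNA by its class in the table, whose reads may not be separate from those of the gene it overlaps, measured 643, 701 and 720.2 RPKM in the controls and 1058, 1150 and 1238 RPKM in the mutants (limma adjusted p = 0.012). Nppa, the atrial natriuretic peptide, measured 986, 1039 and 1083 RPKM and 1602, 1759 and 1860 RPKM (limma adjusted p = 0.012). In both, as in the cytosolic sum, mutant 10 was the highest heart. Gm13054 and Nppa had the same order over all 6 hearts, and whether their reads are separate was not tested. Slc7a5, a transporter of large neutral amino acids, measured 7.15, 7.89 and 7.91 RPKM in the controls and 15.3, 15.2 and 16.9 RPKM in the mutants (limma adjusted p = 0.0021). Slc6a9, a glycine transporter, measured 1.28, 1.45 and 1.46 RPKM and 2.56, 3.22 and 3.75 RPKM (limma adjusted p = 0.021). These correlations include the difference between genotypes and are a description of 6 hearts. Genes chosen by them are thus likely to be higher in mutant hearts, and their calls are not separate support.

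Within each genotype the hearts differed too, in an order that was not the same in each group of genes. Among the 20 cytosolic genes control 2 was the lowest control heart in 13 and mutant 10 the lowest mutant heart in 0. Over the 12 free enzymes the median log2 value against the control mean was −0.06, 0.01 and 0.07 in control hearts 2, 5 and 9, and 0.48, 0.58 and 0.61 in mutant hearts 5, 8 and 10. Over the 8 complex genes it was −0.08, 0.03 and −0.01 and 0.33, 0.23 and 0.25, so that mutant 5 was the highest there. Over the mitochondrial genes it was −0.07, 0.07 and 0.01 and 0.02, −0.02 and 0.15. Control 2 was the lowest control heart in 9 of the 16 mitochondrial genes also.

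In the start regions, the 6 called cytosolic genes with a sequence held the C/EBP-ATF response element in 4 cases (Aars, Gars, Iars and Yars) and the 7 others in 1 (Tars). The called genes Sars and Mars had no match in the 300 bases, which says only that these letters are not in this window. The core of the hypoxia response element to which HIF1 binds was searched as ACGTG on both strands, and the form GCGTG was not searched. ACGTG was found in 2 of the 6 called genes (Aars and Iars) and 4 of the 7 others (Eprs, Farsb, Kars and Tars). Among the 14 mitochondrial genes it was found in 4. It was found in 19.6% of all start regions and in 29% of the start regions of genes in the deposited table.

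The whole series sets limits to these values. Low values of the table imply 101850000 to 158650000 reads behind the libraries, and the first principal component (45.3% of the variance) ran from control 2 to mutant 8. The mean of Hif1a itself was 51.3 ± 8.54 RPKM over control hearts and 69.5 ± 12.6 RPKM over mutant hearts (SD, n = 3; limma adjusted p = 0.36), a value that does not check the deletion, since the removed exons were not given in the sources used here. All 12 heart muscle markers were expressed in all hearts, with sums of 17807 to 19594 RPKM in controls against 18684 to 20242 RPKM in mutants. Of 9 macrophage markers 9 were lower in the mean of mutant hearts and none was at 0, with sums of 31.7 to 39.3 RPKM in controls against 10.4 to 27.9 RPKM in mutants. Of 8 epicardial and mesenchymal markers 7 were lower (406 to 469 and 262 to 376 RPKM), as were 7 of 8 endothelial markers (110 to 129 and 97.1 to 122 RPKM), and 6 erythroid markers summed to 13678 to 16224 and 11546 to 20630 RPKM. Of all 13080 tested genes 5567 had a positive log2 change. Lower at an unadjusted limma p under 0.05 were 7 macrophage, 4 epicardial and mesenchymal and 4 endothelial markers (6.26% of all tested genes). Heart muscle markers higher at that p numbered 2, and no marker passed after adjustment. The part of these cell types in the values of the synthetases was not tested. Over all genes 55 were called higher and 52 lower, against 57 and 34 after median centring and 54 and 79 after rescaling without haemoglobin genes. The higher share of calls was thus 51.4%, 62.6% and 40.6% with a nearly steady number of higher calls, and the median of all genes moved by less than 0.1.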

How the data were processed

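Total RNA of 6 hearts was extracted with TRIzol and sequenced from Illumina libraries, per the labels' protocols. The submitters' processing notes name Trim Galore, TopHat2 and mm10. Counter, annotation release and strandedness: not given in the sources used here. Linear RPKM values deposited by the authors cover constitutive exons of 15118 genes, with no value of 0. The header lists the exons used and names no unit, so RPKM rests on the values. In single-exon genes 91.9% to 97.7% of low values lay within 0.1 of whole multiples of a step set by exon length (18.4% to 20.5% for other steps), which gave the implied reads. Gene positions and exon overlaps come from GENCODE M21 (mm10).

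Values were tested as log2(RPKM + 1) in limma 3.58.1 under R 4.3.3, with a trended prior variance, over the 13080 genes that reached 1 RPKM in 3 or more hearts (2038 not tested), without covariates, with Benjamini-Hochberg adjustment over all tested genes, two-sided, tested on simulated data. Pairs of enzymes used exact permutation tests. The members and lists were chosen with earlier results of these data known. Every member is reported. Members past the threshold, and pairs whose differences do not overlap, are given in every heart. Of other lists, up to 4 genes with the smallest p could be named. Rpp14, listed in 2 rows, was read from the first. Gatb, Rtcb, Eif3j, Hbb-bt and Hbb-bs had no row under these symbols. Alternatives are listed with their effect in the closing section. Tables and figures used Python 3.11.15 and matplotlib 3.10.9.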

Additional observations from a re-analysis of the deposited data

How the results depend on the processing

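Alternatives were median centring, rescaling without haemoglobin genes, no filter, a minimum of 5 RPKM, pseudocounts of 0.1 and 5, limma without trend or with a robust prior, leaving out each heart, and, chosen after seeing the data, the 4 hearts without control 2 and mutant 8 and protein-coding genes alone. In each of these settings 0 mitochondrial genes passed and 0 members fell. The 8 called genes kept their sign in all 16. After median centring every mutant heart also lay above every control heart in Rars, Hars, Aars2 and Hars2, which overlapped without centring. The number of members called was 3 to 9 when 1 heart was left out (3 without control 2, control 5 or mutant 10 and 4 without control 9), of cytosolic genes 3 to 9, of complex genes 0 to 2 and of free enzymes 3 to 7. In the 4 hearts it was 5 members, of which 4 were cytosolic and the fifth Xpot, with 0 complex genes. Complex genes called were 1 after rescaling without haemoglobin genes, with a pseudocount of 0.1 and with limma without trend. The median of the cytosolic genes was 0.39 and of the free enzymes 0.43 with a pseudocount of 5. Over all genes 22 to 85 were called higher and 14 to 113 lower with 1 heart left out, and 34 lower after median centring and 79 after rescaling. The cause of these changes was not tested, other than that leaving out hearts leaves fewer samples.

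Members that changed sign were never past the threshold. With 1 heart left out the log2 change ranged from −0.030 to 0.086 for Qars, −0.14 to 0.065 for Dars, −0.0073 to 0.12 for Farsa, −0.58 to 0.80 for Lars2, −0.057 to 0.15 for Sars2, −0.10 to 0.029 for Fars2, −0.14 to 0.018 for Iars2, −0.056 to 0.15 for Nars2, −0.056 to 0.020 for Pars2, −0.049 to 0.050 for Wars2, −0.073 to 0.15 for Yars2, −0.19 to 0.10 for Ears2 and −0.018 to 0.13 for Mars2. After median centring it was 0.00057 for Dars, 0.0095 for Fars2, 0.015 for Pars2 and 0.029 for Wars2. After rescaling it was −0.011 for Qars, −0.010 for Nars2 and −0.018 for Yars2. In the 4 hearts it was 0.13 for Dars, −0.033 for Farsa, −0.0043 for Cars2, 0.14 for Ears2, 1.00 for Lars2, −0.13 for Sars2 and 0.029 for Wars2. The shift of the pair Lars2 and Lars ranged from −1.24 to 0.25 and of Rars2 and Rars from −0.069 to 0.033 with 1 heart left out, and was 0.37 and 0.065 in the 4 hearts. There the shifts of Yars2 and Yars and of Ears2 and Eprs were −0.33 and −0.22, and Vars2 changed by 0.17. Pairs lower in every mutant heart numbered 11 to 13, and 1 was higher (Vars2 and Vars, without control 5). No paired analysis was possible because the genotypes share a single sample number.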
